A study of Rattus norvegicus with 18 samples.

Results

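Fractalkine (Cx3cl1), the class II molecule RT1-Ba and apolipoprotein E (Apoe) were followed in whole kidneys of rats after recovery from ischemic acute renal failure (ARF). They are the 3 genes that were chosen by symbol, out of 1483 gene symbols on the array, as genes of monocyte recruitment and of macrophages. Each is carried by 1 cDNA clone, spotted 2 times. Total RNA was compared on 18 spotted two-colour cDNA arrays between 6 ARF rats, killed after 52 min of renal ischemia with reperfusion and 35 days of recovery, and 6 sham-operated rats. Each of the pairs A to F, of 1 ARF and 1 sham rat, was hybridised 2 times, once in each dye orientation, and 6 more arrays, R1 to R6, set sham rats against each other. Strain, sex and age of the rats, and whether 1 or both kidneys were made ischemic, are not given in the sources used here.

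The unit of every value below is a normalized log ratio of the channels of an array, centred on the mean of that array, whose log base is not stated. With logs to base 2, a value of 0.24 would stand for a 1.18-fold difference. Natural logs would make it 1.27-fold, and logs to base 10 1.74-fold. Values of a pair are read as ARF over sham. The labels do not state this direction, which is likely from the order of the channels but assumed, and all signs would flip under the other reading. Over clones, both arrays of each pair correlated positively in all 6 pairs (r from 0.24 to 0.66), as they would if both had been turned the same way before deposit. A dye effect shared by unturned arrays would also correlate them, so the turning is assumed. The difference between orientations correlated with the sham-sham means, where the dye does not cancel (r = 0.50 over 668 clones), as a dye effect in turned arrays would. Array intensities are not part of the values used here, so the level of one gene cannot be set against that of another.

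Fractalkine is a chemokine that is made as a membrane protein on a mucin-like stalk. Proteases of the ADAM family release it, and its receptor Cx3cr1 is carried by monocytes, macrophages and some lymphocytes, which adhere to or migrate towards cells that display it. In the kidney, endothelium and tubular epithelium are known sources. RT1-Ba encodes the alpha chain of the rat class II molecule RT1.B, which presents peptides to CD4+ T cells on dendritic cells, macrophages and B cells. Apolipoprotein E is the ligand through which LDL-receptor family members take up lipoproteins, and macrophages secrete it along with liver and some kidney cells. In RNA of a whole kidney, fewer cells of a type and less RNA per cell cannot be told apart.

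All 3 genes had almost the same mean log ratio and differed in how steady it was. Cx3cl1 averaged 0.24 ± 0.085 (SD, n = 6 pairs), RT1-Ba 0.24 ± 0.27 (n = 6) and Apoe 0.24 ± 0.37 (n = 6). Cx3cl1 was above 0 in 6 of 6 pairs, and RT1-Ba and Apoe were each above 0 in 5 of 6. The pair below 0 was E for RT1-Ba and B for Apoe. No member passed the threshold of 0.05 on the Benjamini-Hochberg adjusted p of limma over the 947 clones measured on both arrays of at least 4 pairs. The adjusted p was 0.070 for Cx3cl1, 0.25 for RT1-Ba and 0.38 for Apoe. Over these clones 9 passed (0.95%), 3 above 0 and 6 below, and 15 passed, 8 above 0 and 7 below, when arrays were centred on their medians. Of the 600 clones measured in all pairs, 4.5% were above 0 in all 6 pairs, 16.8% were above 0 in at least 5, 5.17% were below 0 in all 6 and 20.2% were below 0 in at least 5.

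**Figure D1:**
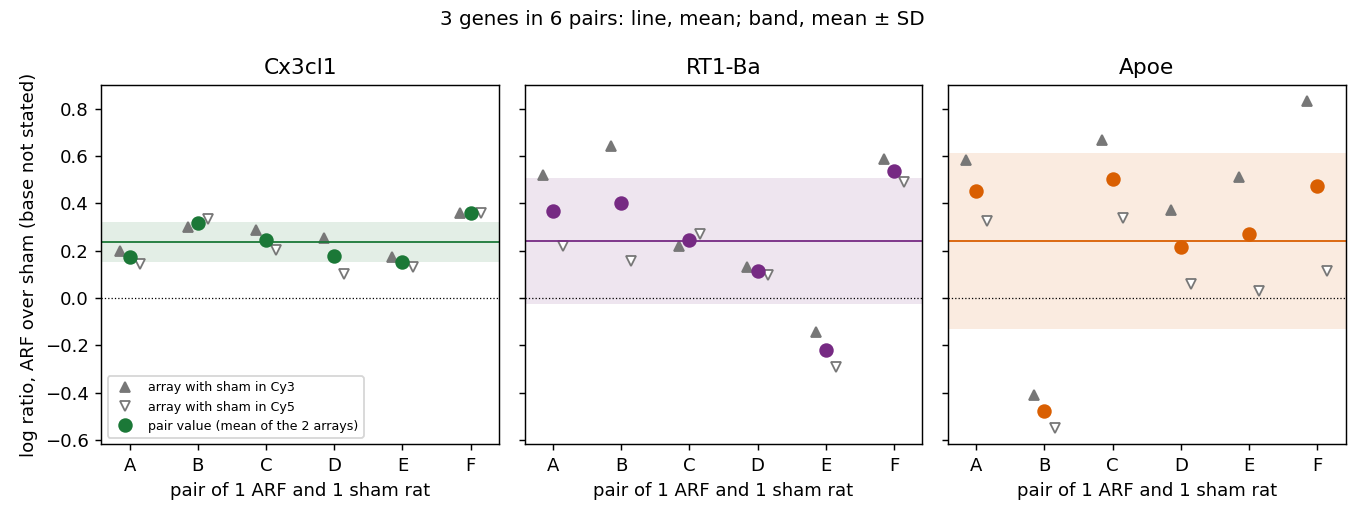
Log ratio of ARF over sham (vertical axis, base not stated) in pairs A to F for Cx3cl1, RT1-Ba and Apoe, where filled triangles are arrays with sham in Cy3, open triangles arrays with sham in Cy5, circles the pair value, the line the mean and the band the mean ± SD over 6 pairs. Cx3cl1 stays between 0.15 and 0.36, RT1-Ba falls to -0.22 in pair E and Apoe to -0.48 in pair B.

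The recruiting signal is described first. The pair values of Cx3cl1 were 0.17 in pair A, 0.32 in B, 0.24 in C, 0.18 in D, 0.15 in E and 0.36 in F. Pairs B and F were highest, and none came near 0. All 12 single arrays were above 0, and they averaged 0.26 where Cy3 labelled the sham RNA and 0.21 where Cy5 did. The dye effect, the difference between these orientations divided by 2, was 0.025 ± 0.033 (n = 6, adjusted p = 0.56 by limma). A two-sided exact sign-flip permutation test over the 6 pairs gave p = 0.031, the smallest that 6 pairs allow. Every clone with all 6 pairs on 1 side of 0 reaches this unadjusted p. Of the 600 clones measured in all pairs, these were 4.5% above 0 and 5.17% below. By unadjusted p, Cx3cl1 ranked 18 among the 947 clones.

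The spread of Cx3cl1 was small for this array. Its SD over pairs of 0.085 was undercut by 54 of the 600 clones measured in all pairs, whose median SD was 0.18. Duplicate spots of Cx3cl1 on the ARF-sham arrays differed by a median of 0.091, against 0.088 over all tested clones, and 23 of 24 spots had a value. The widest gap was 0.35, on the array of pair B with sham in Cy3, where the spots read 0.48 and 0.12. Among 19 alternative settings the means ran from 0.21 to 0.26, and Cx3cl1 passed in 4. Every array of Cx3cl1 was above 0, so the sign of these means was fixed. Several settings also reuse the same pair values and so return the same mean. With 1 value per gene the limma adjusted p was 0.046 over 680 genes, of which 15 (2.21%) passed. With only the arrays that carry sham in Cy3 it was 0.043, and there 2.45% of clones passed. With only those that carry sham in Cy5 it was 0.16, which did not pass. With all 12 arrays fitted and the pair as a replicate block it was 0.012, or 0.016 with a dye term, and 4.44% of clones passed in the first of these fits. These block fits use 1 correlation within pairs for all clones, 0.29, or 0.51 with a dye term. The 2 arrays of a pair, which carry the same rats, thus count partly as separate replicates there. With any pair left out Cx3cl1 did not pass (adjusted p from 0.074 to 0.41).

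**Figure D2:**
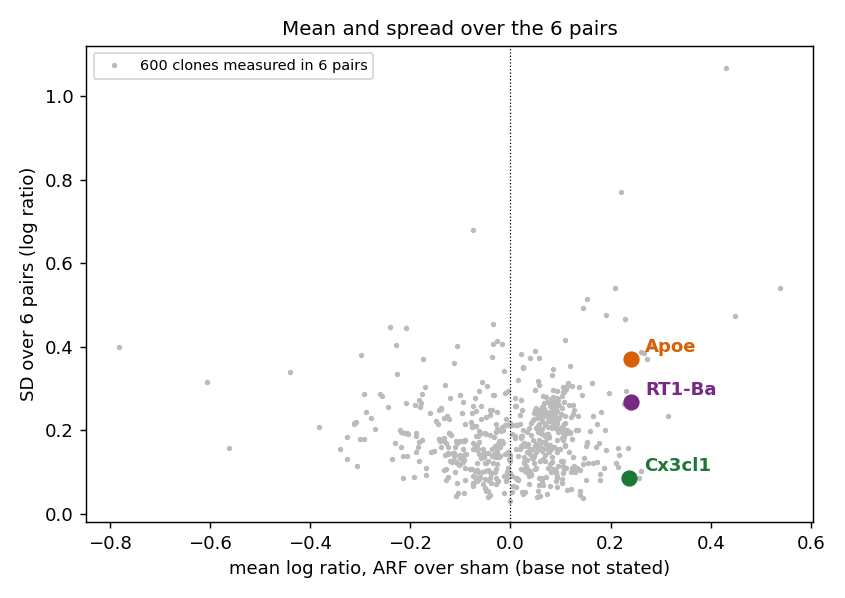
Mean log ratio over the 6 pairs (horizontal axis) against the SD over these pairs (vertical axis) for the 600 clones measured in all of them (grey points). The 3 genes, in colour, share a mean of 0.24 but lie at SDs of 0.085, 0.27 and 0.37.

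The promoter of Cx3cl1 is shown for its identity, with matches in capitals to a GC box (GGGCGG, in 33.1% of all 33469 promoter windows of the same length) at position 152 and to a TATA box (TATAA, in 26.2%) at position 173. The window holds 300 bases around the start in RefSeq's annotation of GRCr8, at chr19:10242771-10243070 on the minus strand. Both strands were searched for all motifs, and no matches overlap in the windows printed.
Cx3cl1: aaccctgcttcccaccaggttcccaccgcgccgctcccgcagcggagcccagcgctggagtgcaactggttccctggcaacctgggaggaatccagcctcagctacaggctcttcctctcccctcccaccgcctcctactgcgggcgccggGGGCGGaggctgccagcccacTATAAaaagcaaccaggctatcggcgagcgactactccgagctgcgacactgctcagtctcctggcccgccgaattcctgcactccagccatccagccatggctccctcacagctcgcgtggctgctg

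The class II gene varied more from pair to pair. RT1-Ba had 0.37 in pair A, 0.40 in B, 0.25 in C, 0.11 in D, -0.22 in E and 0.54 in F. Pair F was highest, and pair E alone was below 0, on all 4 of its spots (-0.15, -0.14, -0.23 and -0.35). Of the 12 arrays 10 were above 0. The two-sided exact sign-flip permutation p over the 6 pairs was 0.094. It averaged 0.33 with Cy3-labelled sham RNA and 0.16 with Cy5-labelled sham RNA, and the dye effect of 0.084 ± 0.098 (n = 6) did not pass (adjusted p = 0.16 by limma). In pair B the orientations stood widest apart, at 0.64 and 0.16. With any 1 pair left out, the mean of RT1-Ba ran from 0.18 without F to 0.33 without E, and it passed in none of these fits.

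RT1-Ba was followed most closely by RT1-Db1, the beta chain of the other rat class II molecule RT1.D. Likeness was taken as the mean absolute difference of the 6 pair values, which was 0.094 for RT1-Db1, the smallest of 419 other named clones, against a median of 0.34 over them. RT1-Db1 had 0.29 in pair A, 0.17 in B, 0.15 in C, 0.064 in D, -0.14 in E and 0.50 in F. Its lowest and highest pairs were those of RT1-Ba, which the choice by these values favours. Its mean of 0.17 ± 0.22 (n = 6) did not pass (adjusted p = 0.34 by limma). The sham-sham arrays that measured both genes did not enter this choice, though they share the sham rats. RT1-Ba read 0.43 on R1, 0.49 on R2 and -0.24 on R6, and RT1-Db1 read 0.29, 0.41 and -0.41, a mean absolute difference of 0.13 with the same sign on all 3. Class II transcripts are related in sequence, and whether either clone also reads the transcript of the other gene was not tested.

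The next closest genes to RT1-Ba were Cx3cl1 (0.15), the ribosomal protein genes Rps15a (0.18) and Rps23 (0.18), and the nuclear receptor Nr2f2 (0.18). RT1-Ba and Cx3cl1 had 1 sign in 5 of 6 pairs. Neither Rps15a nor Rps23 fell below 0 in pair E, where they had 0.17 and 0.061.

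**Figure D3:**
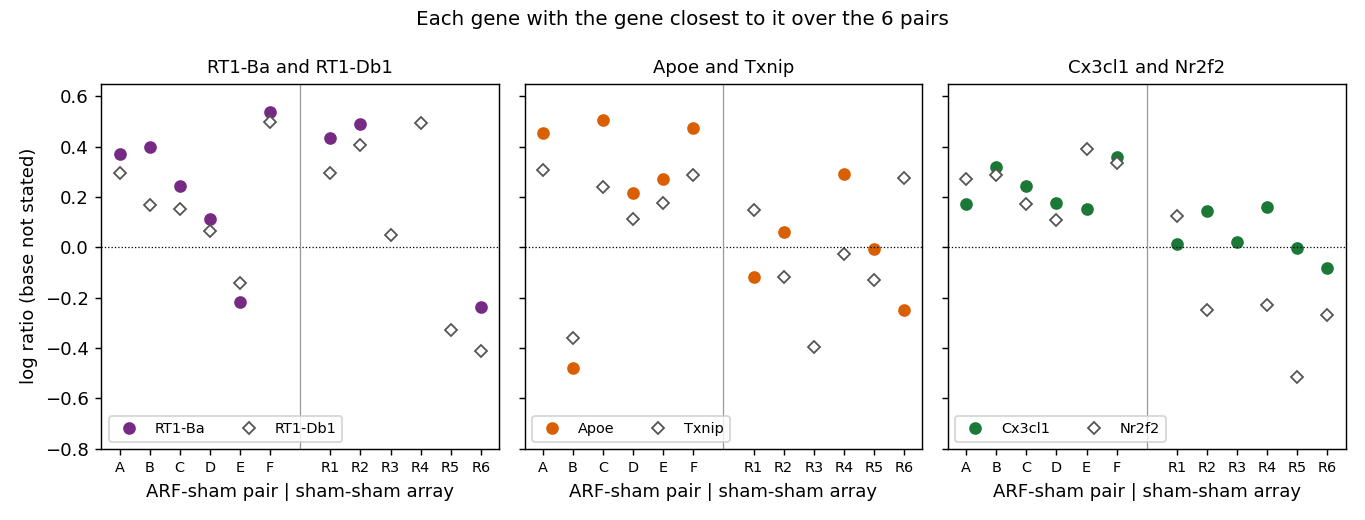
Log ratios (vertical axis, base not stated) of each gene and of the gene closest to it over the 6 ARF-sham pairs (left of the line) and on the sham-sham arrays R1 to R6 (right of the line, channel 2 over channel 1, missing where no value). RT1-Ba and RT1-Db1 lie together on both sides, and Apoe and Txnip lie together in the pairs but on opposite sides of 0 on R1, R2, R4 and R6.

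The promoters of the genes for these class II chains are shown because their values lay so close. Class II promoters are known for an X2 box, which binds CREB-family proteins, and a Y box, which binds the factor NF-Y. The letters searched were TGACGTCA for the X2 box, in 1.83% of windows, and ATTGG or its reverse complement CCAAT for the Y box, in 37.5%. RT1-Ba holds both, an X2 box at position 182 and a Y box at position 208 with 18 bases between them, and 0.696% of windows hold both in any order. RT1-Db1 holds ATTGG at position 171 and CCAAT at position 196, and the exact X2 letters are not in its window, nor in those of RT1-DMa, RT1-Bb, RT1-Da and Cd74. The window of RT1-Ba lies at chr20:4576807-4577106 on the plus strand and that of RT1-Db1 at chr20:4560113-4560412 on the minus strand (RefSeq, GRCr8), with the matches in capitals.
RT1-Ba: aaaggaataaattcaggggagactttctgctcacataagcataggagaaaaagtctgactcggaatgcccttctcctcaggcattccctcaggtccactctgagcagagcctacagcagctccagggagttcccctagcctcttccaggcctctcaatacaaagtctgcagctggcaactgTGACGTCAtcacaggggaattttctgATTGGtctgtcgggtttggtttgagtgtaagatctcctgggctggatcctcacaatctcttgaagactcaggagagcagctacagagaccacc
RT1-Db1: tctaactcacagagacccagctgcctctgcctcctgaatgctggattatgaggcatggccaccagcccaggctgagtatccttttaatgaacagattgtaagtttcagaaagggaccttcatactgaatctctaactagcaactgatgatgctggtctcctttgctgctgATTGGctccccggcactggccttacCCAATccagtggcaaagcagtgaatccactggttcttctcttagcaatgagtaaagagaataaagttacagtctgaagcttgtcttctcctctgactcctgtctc

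Apoe had the widest spread. Its pair values were 0.45 in A, -0.48 in B, 0.50 in C, 0.22 in D, 0.27 in E and 0.47 in F. Pair B stood apart from all others, with all 4 spots below 0, at -0.38, -0.44, -0.48 and -0.62. The other pairs did not fall below 0.22. The two-sided exact sign-flip permutation p over the 6 pairs was 0.19. Without pair B the mean was 0.38 and the limma adjusted p 0.063, and without any other pair the adjusted p lay higher. The SD of 0.37 was exceeded by few clones, since 569 of the 600 measured in all pairs had a smaller one.

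Apoe also moved with the dye. Arrays with Cy3-labelled sham RNA averaged 0.43, and those of the opposite orientation 0.053. The dye effect was 0.19 ± 0.10 (n = 6), above 0 in 6 of 6 pairs, and passed (adjusted p = 0.018 by limma), as did 16.1% of all tested clones. In pair F the orientations read 0.83 and 0.11, and in pair E 0.51 and 0.031. If both arrays of a pair were turned alike, averaging over the orientations cancels such an effect. Both arrays of each pair had the same sign. In pairs D and E, however, the arrays with sham in Cy5 lay near 0, at 0.060 and 0.031. Their duplicate spots had opposite signs, at -0.14 and 0.26 in pair D and at -0.13 and 0.19 in pair E.

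The gene closest to Apoe was Txnip, the thioredoxin-binding protein, with a mean absolute difference of 0.15 against a median of 0.41 over the 419 other clones. It had -0.36 in pair B and from 0.11 to 0.31 in the other pairs, a pattern that the choice by these same pair values fixes. Its mean was 0.13 ± 0.25 (n = 6, adjusted p = 0.51 by limma). On the 5 sham-sham arrays with both genes the difference was 0.28, and they lay on opposite sides of 0 on R1, R2, R4 and R6. Next came Cyba (0.22), a subunit of the phagocyte and tubular NADPH oxidase, at -0.23 in pair B and 0.56 in pair C, then Rps15a (0.23), Mfge8 (0.24), which tags dying cells for uptake by phagocytes, and the LIM protein gene Csrp1 (0.24).

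The genes closest to Cx3cl1 were Nr2f2, known as COUP-TFII (0.089), the tetraspanin Cd82 (0.099), Rack1 (0.10), the G protein subunit Gnb2 (0.11) and Ptprn (0.11), against a median of 0.28. Nr2f2 averaged 0.26 ± 0.10 and Cd82 0.14 ± 0.055 (each n = 6, adjusted p = 0.058 and 0.23 by limma). On the 5 sham-sham arrays with both genes, Nr2f2 and Cx3cl1 differed by 0.32 on average, with opposite signs on R2 (-0.25 and 0.14) and R4 (-0.23 and 0.16). Nr2f2, Rack1 and Ptprn had dye effects past the threshold, of -0.27, 0.18 and 0.15, and Cx3cl1 did not pass that test.

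Across the 6 pairs the 3 genes were compared with each other. RT1-Ba minus Cx3cl1 averaged 0.0039 ± 0.21 (SD, n = 6), from -0.37 to 0.20. Apoe minus Cx3cl1 averaged 0.0028 ± 0.40, from -0.80 to 0.28. RT1-Ba minus Apoe averaged 0.0011 ± 0.47, from -0.49 to 0.88. None of these mean differences was told apart from 0 (two-sided exact sign-flip permutation p = 0.91, 1 and 1, each 1 when adjusted over the 3 comparisons). This test bears on the means, which were almost equal, and not on likeness within single pairs. Over the 6 pairs RT1-Ba and Cx3cl1 correlated with r = 0.77 and rho = 0.83 (two-sided exact permutation p = 0.057 and 0.058, 0.17 and 0.18 adjusted over 3 relations). Without pairs E and F, the farthest from the median of RT1-Ba, r was 0.51. Apoe and Cx3cl1 had r = -0.27 and rho = 0.14 (exact permutation p = 0.71 and 0.80, adjusted 0.89 and 0.80), with r = 0.60 without pairs B and D. RT1-Ba and Apoe had r = -0.056 and rho = 0.14 (exact permutation p = 0.89 and 0.80, adjusted the same), with r = -0.40 without pairs E and F. The genes share the same arrays in each pair.

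The sham-sham arrays showed how far the 3 genes vary without ischemia. Here 1 array stands for 1 comparison, so the dye does not cancel, the arrays share rats, and no test was run on them alone. The rows of these arrays were first put in the order of the ARF-sham arrays by exchanging adjacent blocks of rows, an order found from the data, on which all sham-sham values and rat levels rest. Cx3cl1 read 0.013 on R1, 0.14 on R2, 0.020 on R3, 0.16 on R4, -0.0035 on R5 and -0.083 on R6. The size of the log ratio averaged 0.071 there and 0.24 in the ARF-sham pairs, of which 5 of 6 exceeded the largest sham-sham value. Its 2 spots disagreed most on R2, at 0.64 and -0.35, they also had opposite signs on R1, R3 and R5, and R4 had 1 spot. RT1-Ba had values on 3 arrays, and their size averaged 0.39, against 0.31 in the ARF-sham pairs. Of the ARF-sham pairs, 1 of 6 exceeded the largest sham-sham value of RT1-Ba. Apoe read -0.12 on R1, 0.059 on R2, 0.29 on R4, -0.0061 on R5 and -0.25 on R6. Its size averaged 0.15 there and 0.40 in the pairs, of which 4 of 6 exceeded the largest sham-sham value. Pairs beyond the largest sham-sham value were not counted over all clones, so how common such counts are is not known here. With the rows in the order as deposited, the sham-sham sizes were 0.11 for Cx3cl1 (5 arrays), 0.32 for RT1-Ba (1 array) and 0.30 for Apoe (2 arrays).

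**Figure D4:**
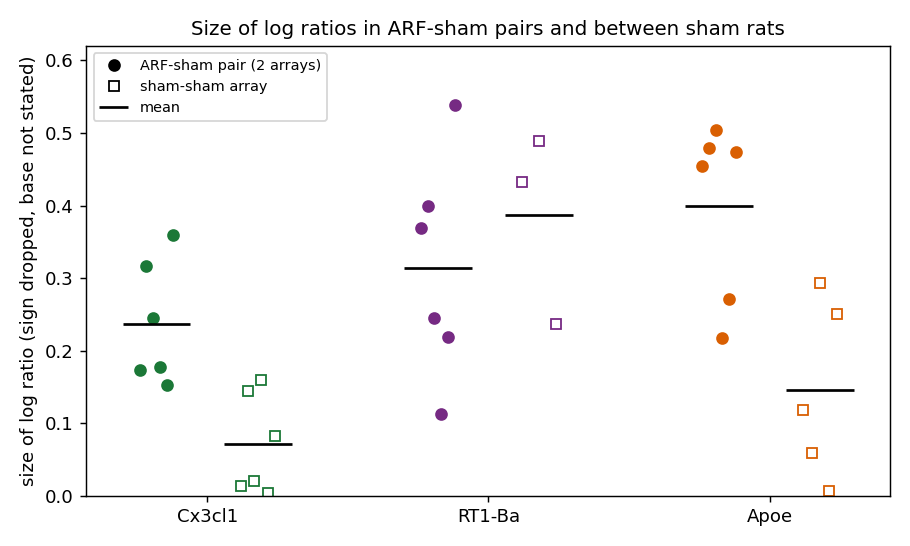
Size of the log ratio with its sign dropped (vertical axis) in the 6 ARF-sham pairs (filled circles, mean of 2 arrays) and on single sham-sham arrays (open squares) for each gene, with a bar at the mean. The pairs lie mostly above the sham-sham arrays for Cx3cl1 (means 0.24 and 0.071) and Apoe (0.40 and 0.15), and RT1-Ba lies as high on the 3 sham-sham arrays (0.39) as in the pairs (0.31).

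Because the arrays link all rats, a level of each of the 12 rats relative to their mean was fitted by least squares, with a term for the dye, for genes whose sham-sham values connect every rat. Each ARF rat was measured only against its own sham rat, so ARF minus sham within a pair is the pair value again. For Cx3cl1 the sham rats lay between -0.18 and 0.0084, with a median of -0.15, and the ARF rats between -0.0072 and 0.19, with a median of 0.14. The groups overlapped by 1 rat on each side, ARF rat A and sham rat D, and 5 of 6 ARF rats were above every sham rat. Without R2, a choice made after the values were seen, all 6 were. For Apoe the sham rats ranged from -0.42 in rat F to 0.20 in rat D, and the ARF rats from -0.39 in rat B to 0.41 in rat D. The Apoe groups overlapped widely, with 3 of 6 ARF rats above every sham rat, and in pair B the ARF rat lay at -0.39 and the sham rat at 0.089. Without the dye term 5 of 6 Apoe ARF rats were above every sham rat. The share of all clones whose ARF and sham rats separate this far was not counted, so these counts cannot be called unusual. RT1-Ba could not be fitted, and its near match RT1-Db1 ran from -0.47 to 0.29 in sham rats and from -0.30 to 0.36 in ARF rats. As separate groups of rats with no replicate block and no dye term, Cx3cl1 had an adjusted p of 0.24 and Apoe of 0.91 by limma. With a dye term these were 0.22 and 0.87.

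**Figure D5:**
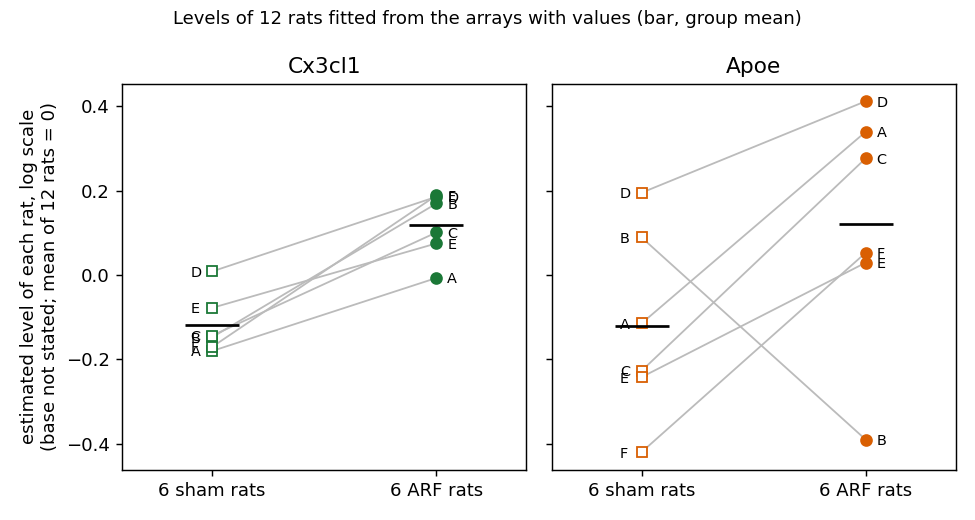
Fitted level of each rat on the log scale (vertical axis, base not stated, mean of the 12 rats at 0) for Cx3cl1 and Apoe, from the fit with a dye term, where squares are sham rats, circles ARF rats, letters and lines the pairs, bars the group means. The rise or fall of a line is the pair value of that pair, and not a further result. Every Cx3cl1 line rises, and the Apoe line of pair B falls to -0.39.

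The other genes of these pathways were read from lists that hold the members themselves. Of 32 macrophage and class II genes, 10 were on the array and 5 tested. All 5 means were above 0, those of the members RT1-Ba and Apoe among them. The median was 0.24, Apoe's own mean, against 0.015 over all tested clones, and so gives no support apart from the members. At the adjusted threshold 0 of 5 passed by limma, with 3, RT1-Ba among them, at an unadjusted p under 0.05, as had 14.7% of all tested clones. Besides RT1-Ba, Apoe and RT1-Db1 these were Lgals3 (galectin-3, a lectin of activated macrophages and injured epithelium), at 0.47 ± 0.58 (n = 5, adjusted p = 0.27), and, named after its values were seen, RT1-DMa. RT1-DMa, a chain of the DM molecule that loads peptides onto class II, had 0.17 ± 0.042 (n = 4, adjusted p = 0.32), with pair E again lowest at 0.11. Lgals3 was below 0 in pair C (-0.52), where RT1-Ba had 0.25. The invariant chain gene Cd74, which guides class II chains through the cell, had values on 2 of 12 arrays. Of the macrophage genes measured in 3 pairs, A, E and F, the complement gene C1qb had 0.39, 0.12 and 0.21, the protease gene Ctss 0.73, -0.13 and 0.38, the DM chain gene RT1-DMb -0.0042, -0.31 and 0.20, and the lysozyme gene Lyz2 0.27, -0.74 and -0.56. These were too few pairs for the test, and they are named after their values were seen. In pair E, where RT1-Ba was below 0, the list was divided: RT1-Db1, Ctss, RT1-DMb and Lyz2 were below 0, and Lgals3 (0.48), Apoe (0.27), C1qb and RT1-DMa were above.

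Class I presentation was read as a neighbouring pathway. Of its 5 tested genes 0 passed by limma and 0 had an unadjusted p under 0.05, with a median of 0.050 and means of 0.094 ± 0.20 for the class I heavy chain RT1-A1, 0.082 ± 0.16 for RT1-CE1, 0.050 ± 0.11 for B2m (beta-2-microglobulin; each n = 6) and -0.077 ± 0.23 for the chaperone Pdia3 (n = 5). The class I heavy chains are near-identical copies that a cDNA clone may not tell apart. In the chemokine and adhesion list 10 genes were on the array and 4 tested, and 0 passed by limma. An unadjusted p under 0.05 was reached by 1 of 4, Cx3cl1 itself, for which the list was made, against 14.7% of all tested clones. The 4 tested genes were Cx3cl1, the secreted adhesion protein Spp1 (0.22 ± 0.77, n = 6), the cytokine Mif (0.11 ± 0.23, n = 6) and the integrin chain Itgb1 (0.069 ± 0.15, n = 4), with a list median of 0.17. The sheddase Adam17 had values on both arrays of 1 pair, and the receptor Cx3cr1 was not analysed here.

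Of 13 genes of lipoproteins and cholesterol on the array, 4 could be tested and 0 passed by limma, with 0 at an unadjusted p under 0.05. Next to Apoe these were clusterin (Clu, also apolipoprotein J; 0.21 ± 0.54, n = 6), the endocytic receptor megalin (Lrp2; -0.055 ± 0.16, n = 6) and lipoprotein lipase (Lpl; 0.0044 ± 0.095, n = 4). Clu was lowest in pair C (-0.69), where Apoe was at its highest. Apoa1, Apoc1 and Apod had values on 0 of the 12 arrays. The 8 lysosomal genes had a median of 0.0019 and 0 passed by limma, with 1 of 8 (Ctsl) at an unadjusted p under 0.05, against 14.7% of all tested clones. Ctsl lay at -0.21 ± 0.27 (n = 6), Lamp2 at -0.065 ± 0.25 (n = 5), Ctsd at 0.058 ± 0.37 and Ctsb at 0.033 ± 0.13 (each n = 6). Of the interferon and NF-kB list 3 were tested and 0 passed by limma, with 0 at an unadjusted p under 0.05. They were Nfkb1 (0.15 ± 0.18), Stat3 (0.12 ± 0.081) and the NF-Y subunit Nfyb (0.11 ± 0.20; each n = 4).

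Markers of other cells were read beside these values, and their part in the results was not tested. Of 16 lymphocyte genes only Cd3d was on the array, with values on 2 of 12 ARF-sham arrays. Of the endothelial list Vegfa alone could be tested (0.12 ± 0.15, n = 5, adjusted p = 0.49 by limma), a growth factor that epithelium also makes. Its receptor Kdr, a marker of endothelial cells named after its values were seen, had 0.14 in pair A, -0.29 in E and -0.15 in F. Tubular markers, which the tissue label leads one to look for, had values. The 8 tested proximal tubule genes had a median of -0.15 and 0 passed by limma, with 3 of 8 at an unadjusted p under 0.05, against 14.7% of all tested clones. These were Hao2 at -0.37 ± 0.27 (n = 5), Cubn at -0.22 ± 0.20 (n = 6) and Aqp1 at -0.20 ± 0.14 (n = 4), and Gatm lay at -0.16 ± 0.48 (n = 5). Its remaining tested genes, named after their values were seen, were Kap (-0.13 ± 0.14), Lrp2 (-0.055 ± 0.16) and Ass1 (-0.042 ± 0.25). Ggt1 alone lay above 0, at 0.071 ± 0.17 (each n = 6). The 6 thick limb and distal tubule genes had a median of -0.27, with 4 of 6 at an unadjusted p under 0.05 by limma, against 14.7% of all tested clones. Of the 6, 1 passed and lay below 0, the growth factor gene Egf (-0.34 ± 0.16, n = 6, adjusted p = 0.048 by limma). Over all tested clones 0.95% passed in either direction. Egf was below 0 in all 6 pairs, so leaving out a pair could not change its sign. Its mean was below 0 in 19 of 19 alternatives, and Egf passed in 10 (limma adjusted p from 0.0055 to 0.31). It did not pass with the trend and robust options (0.17), nor without pair A (0.086), B (0.14), E (0.20) or F (0.31). In that list Klk1b3 had -0.44 ± 0.34, Slc12a1 -0.31 ± 0.22 and Umod -0.24 ± 0.13 (each n = 6). The list's other members, named after their values were seen, lay above 0, Pvalb at 0.12 ± 0.11 (n = 6) and Slc12a3 at 0.12 ± 0.27 (n = 5).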

How the data were processed

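Kidney RNA of 12 rats was measured on 18 two-colour arrays. The deposited values are normalized log ratios, per the labels, which name ImaGene 4.1 and refer to a published procedure for judging spots and adjusting weak signals. The log base is not stated, each array has a mean of 0 and medians ran from -0.042 to 0.029. Empty cells (57.1%) were taken as spots that the authors filtered out. ARF-sham arrays had values for 1586 to 2786 of 4608 spots and sham-sham arrays for 914 to 2232, and the number of arrays limits the precision.

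The 1519 accessions on 2 rows lay 1152 rows apart, so spots were averaged to 2304 clones. Gene symbols are those of GEO's platform table, brought up to date through gene identifiers (1483 of 1489 clones with 1 symbol matched). 32 clones had several symbols and 783 none, and these were tested but not named. The sham-sham columns are in another row order. Exchanging adjacent blocks of 288 rows raised the mean correlation of where values are present from -0.013 to 0.59, and values on 64 ribosomal protein spots from 33.3% to 77.1%, against 92.4% on the ARF-sham arrays as deposited. This order was used and was chosen after the values were seen. Over 668 clones the dye effect in the pairs correlated with the sham-sham means at r = 0.50. Both kinds of array thus run by the same channel convention if pairs are ARF over sham and both their arrays were turned alike.

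Both arrays of a pair were averaged, and the 6 pair values were tested against 0 with limma 3.58.1 (R 4.3.3; intercept, eBayes) over the 947 clones for which 4 or more pairs had both arrays, with Benjamini-Hochberg adjustment and a threshold of 0.05. The labels name the pairs. Single values were tested with exact sign-flip permutation (64 sign patterns) or exact permutation of pairs. The procedure was tested on simulated data. The labels give 1 rat per channel, so pairs count animals. Named genes were the members, the 5 closest clones to each, and per list those past the threshold and the 4 largest means. Members and lists were chosen with earlier results of these data known. Alternatives were other centring, dye orientation, filters, spots, moderation, blocks, rat levels, genes in place of clones and leaving out each pair. Promoter sequences are RefSeq's (GRCr8), and all 3 members matched. Apoe has 3 windows and is not printed.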

Additional observations from a re-analysis of the deposited data

Results flagged for a closer look

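In pair B, Apoe had a pair value of -0.48, farther from the other 5 pairs than a single value usually lies in a group of 6 (Dixon's test, gap over range 0.71). Txnip, the gene closest to Apoe, had -0.36 in the same pair. It was chosen for its likeness over these pairs, so this value follows from the choice. In all, 48 groups of values were examined, of which about 5% would stand out by chance. Only these values of Apoe and Txnip did, so chance may account for them. The dye orientations of Apoe differed, with a difference divided by 2 of 0.19 (n = 6 pairs, adjusted p = 0.018 by limma).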

How the results depend on the processing

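The mean of each of the 3 genes stayed above 0 under every alternative run, which for Cx3cl1 follows from its arrays, all above 0. RT1-Ba and Apoe did not pass in any of theirs (17 and 19, lowest limma adjusted p 0.11 and 0.063), and Cx3cl1 passed in 4 of 19. Its means were 0.26 with only sham in Cy3, 0.24 with 1 value per gene and 0.24 in both 12-array fits that took the pair as replicate block. With only sham in Cy5 the mean of Cx3cl1 was 0.21, and it did not pass (limma adjusted p 0.16). Leaving out 1 pair gave means of 0.21 to 0.25 for Cx3cl1, 0.18 to 0.33 for RT1-Ba and 0.19 to 0.38 for Apoe. The number of clones past the threshold was 9 and varied widely: 15 centred on medians, 28 with only sham in Cy3, 5 with pairs measured on 1 array kept, 17 with both spots required, 15 with 1 value per gene, 42 and 29 with the pair as a replicate block without and with a dye term, 2 with no replicate block on rat levels and 3 with a dye term there (chosen after seeing the data), and 0 with limma's trend and robust options (119 at an unadjusted p under 0.05). Without pair A it was 4, without B 1, without C 19, without D 18, and without E or F 0 (68 and 59 at an unadjusted p under 0.05). The differences between members lie near 0 and turn sign easily. With only sham in Cy5, RT1-Ba minus Cx3cl1 was -0.055 and Apoe minus Cx3cl1 -0.16, and with only sham in Cy3 RT1-Ba minus Apoe was -0.10. Leaving out 1 pair, these differences ran from -0.035 to 0.079, from -0.053 to 0.16 and from -0.17 to 0.099, in that order. The cause of these changes was not tested, beyond fewer clones or pairs in some fits. Levels of rats could not be fitted for RT1-Ba. Empty spots limit the lists: of 10 macrophage and class II genes on the array 5 could be tested.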
